A study of Glycine max with 8 samples.

Results

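The sites compared here are stretches of the soybean genome at which chromatin immunoprecipitation sequencing (ChIP-seq) gave a peak in all 8 libraries of the SNAP transcription factors (TFs), and the members are the sites at which both FLAG-SNAP1 libraries stood above, or below, all 6 libraries of FLAG-SNAP2, FLAG-SNAP3 and FLAG-SNAP4. Peaks that overlapped by at least 1 bp were joined over the libraries, which gave 21575 stretches, of which 1279 held a peak of every library. At each of these 1279 sites a library was represented by its strongest peak, scored by the percentile of its fold enrichment among all peaks of the same library, where 100 is the strongest. By this rule 136 sites were higher and 30 sites were lower with FLAG-SNAP1. The FLAG-SNAP1 libraries came from soybean (Glycine max) hairy roots with nodules that carried the coding sequence of SNAP1, taken from Williams 82 cDNA and fused to a FLAG tag. The FLAG-SNAP2, FLAG-SNAP3 and FLAG-SNAP4 libraries came from roots made in the same way with the other coding sequences. All 4 fusions were in the vector pTransE1 behind the soybean pM4 promoter and were brought into hypocotyls with Agrobacterium strain K599, so every group expressed its tagged TF from the same promoter and not from that of the SNAP gene. The archive's labels name each genotype as a mutant of the respective SNAP gene, whereas the methods describe tagged fusions. The TF and replicate number of every library were taken from the archive's sample titles. Each TF had 2 replicates, and the methods give about 2 weeks of incubation before the roots were collected. The nitrogen level of the roots is not given in the sources used here, and roots without a tagged TF were not analysed here.

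NAC proteins are plant TFs that bind DNA through a conserved domain at their amino terminus, and the NAP branch of this family is known for driving leaf senescence. Root nodules house rhizobia that fix nitrogen, and they senesce early when nitrate is plentiful. The SNAP genes are soybean members of the NAP branch, and the ChIP-seq was made to find the genes that they bind in nodules. ChIP-seq recovers DNA bound by a protein through an antibody, here against the FLAG tag, and the recovered DNA received its adapters on the beads from Tn5 transposase.

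The deposited lists held 8426 and 9052 peaks in the FLAG-SNAP1 libraries, against 7937 and 9332 with FLAG-SNAP2, 6590 and 3628 with FLAG-SNAP3, and 5888 and 6856 with FLAG-SNAP4. The study states only a minimum number of reads for every sample, and the depth of each library is not in these files, so fewer peaks and fewer reads cannot be told apart. The ranking of the 1279 sites was most alike within FLAG-SNAP1, whose 2 libraries had a Spearman rho of 0.927, while the replicates of FLAG-SNAP2, FLAG-SNAP3 and FLAG-SNAP4 had 0.873, 0.813 and 0.727 and libraries of different TFs between 0.595 and 0.853. These coefficients are over sites that share libraries and peak callers, and they are given as a description. The second FLAG-SNAP3 library had the shortest list, and the first FLAG-SNAP4 library was the least alike to the rest, with coefficients between 0.595 and 0.727.

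The 136 sites higher with FLAG-SNAP1 were 10.6% of the 1279, and the 30 lower sites were 2.35%. Read in the same way, FLAG-SNAP2 had 142 higher sites (11.1%) and 41 lower sites (3.21%), FLAG-SNAP3 had 66 (5.16%) and 194 (15.2%), and FLAG-SNAP4 had 60 (4.69%) and 133 (10.4%). Higher sites thus outnumbered lower sites in FLAG-SNAP1 and FLAG-SNAP2. The shared sites did not stand at the same height in every list, and their median percentile was 89.2 and 89.8 in the FLAG-SNAP1 libraries, against 88.9 and 90.7 with FLAG-SNAP2, 86.3 and 76.4 with FLAG-SNAP3, and 78.1 and 84.7 with FLAG-SNAP4. When the percentile was taken among the 1279 sites alone, a scale on which every library has the same median, FLAG-SNAP1 had 68 higher sites (5.32%) and 77 lower sites (6.02%). On that scale FLAG-SNAP2 had 69 (5.39%) and 60 (4.69%), FLAG-SNAP3 had 142 (11.1%) and 127 (9.93%), and FLAG-SNAP4 had 117 (9.15%) and 93 (7.27%). Higher sites made up 81.9% of the FLAG-SNAP1 members on the scale of all peaks and 46.9% on the scale of shared sites, so the balance of directions moved with the scale. The sites themselves overlapped in part, and 64 of the 136 higher sites and all 30 lower sites were called on both scales. The other 72 higher sites were called on the scale of all peaks alone. On the scale of shared sites alone 4 higher and 47 lower sites were called, and none changed direction. The count of higher sites was 223 without FLAG-SNAP2 replicate 2, 277 without FLAG-SNAP1 replicate 1 and 228 without FLAG-SNAP1 replicate 2. The count of lower sites was 46 without FLAG-SNAP2 replicate 1, 68 without FLAG-SNAP3 replicate 2, 51 without FLAG-SNAP4 replicate 1, 77 without FLAG-SNAP1 replicate 1 and 87 without FLAG-SNAP1 replicate 2. Leaving out each library in turn gave 163 to 277 higher and 37 to 87 lower sites. With any library left out the rule is looser, so a rise was to be expected and says nothing about that library. Without a FLAG-SNAP1 library the rule rested on the other one alone. Leaving out a library can also change the set of shared sites, whose size is not given for these counts, so they are not shares of the 1279. Without both FLAG-SNAP3 libraries, a setting chosen after seeing the data, 291 of 1995 sites were higher and 149 were lower.

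**Figure D1:**
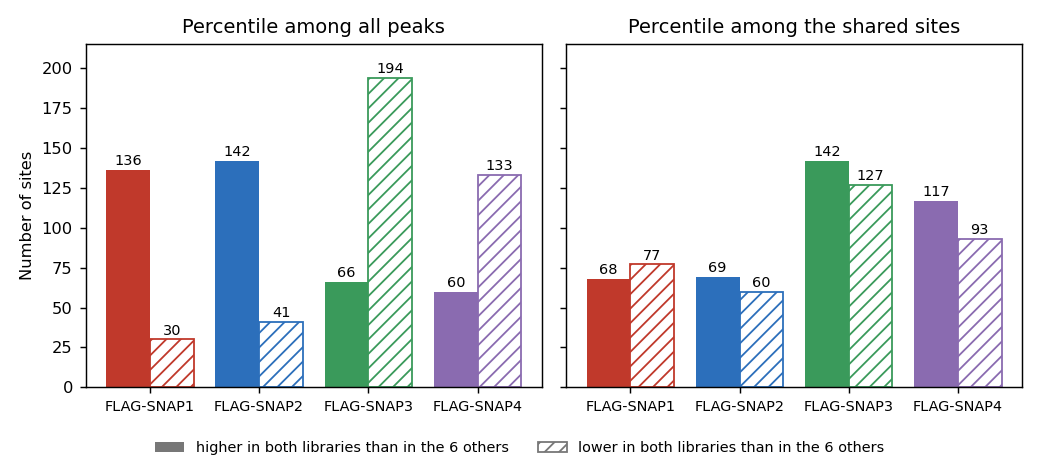
Number of sites, of the 1279 with a peak in all 8 libraries, at which both libraries of a TF were higher (filled bars) or lower (hatched bars) than the 6 libraries of the other TFs, with percentiles taken among all peaks (left) or among the shared sites (right). FLAG-SNAP1 had 136 higher and 30 lower sites on the left, and 68 and 77 on the right.

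The percentile is the rank of the deposited fold enrichment within a library, so the folds of the members are a description of values that the choice used. At 110 of the 136 higher sites the deposited fold of both FLAG-SNAP1 libraries also lay above all 6 others, as it did at 18.8% of all 1279 sites. At 14 of the 30 lower sites it lay below all 6 others, against 1.64% of all sites. The median over the higher sites was 8.73-fold in the FLAG-SNAP1 libraries and 6.17-fold in the others, and over the lower sites 4.20-fold and 5.68-fold. Over all 1279 sites these medians were 6.78-fold and 5.97-fold.

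Because each FLAG-SNAP1 library can be set against the 6 others on its own, the second can be read at sites that the first picked out. FLAG-SNAP1 replicate 1 alone was higher than the 6 others at 228 sites (17.8%), and at 136 of these, 59.6% with an exact 95% binomial interval of 53.0 to 66.1%, replicate 2 was higher as well, against 21.6% of all sites. In the other order, replicate 1 was higher at 49.3% of the 276 sites that replicate 2 picked. For lower sites, replicate 1 alone picked 83 (6.49%), and replicate 2 was lower at 36.1% of them, against 5.55% of all sites. Among the shared sites alone, replicate 1 was higher at 143 sites (11.2%) and lower at 147 (11.5%), and replicate 2 was also higher at 47.6% and lower at 52.4% of them, against 11.4% and 11.3% of all sites. Both replicates were set against the same 6 libraries, so a site at which these are jointly low or high raises both shares, and these values are a description. The other TFs had such shares as well, since on the scale of all peaks replicate 2 was higher at 57.5% of the sites that replicate 1 picked with FLAG-SNAP2, against 28.4% of all sites, and lower at 75.5% with FLAG-SNAP3, against 36.7%. The interval covers the counting of sites only, and neighbouring sites and sites of a gene family need not be independent.

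The sites with the widest gaps give the clearest view of the higher members, where the gap is the lower FLAG-SNAP1 percentile minus the highest of the 6 others. Since the gap chose them, their values are a description and carry no test. The widest was a 522 bp site at chr15:11923357-11923878 (Wm82 a4.v1), outside every gene and 472 bp from the nearest end of the protein-coding gene LOC100809037. It stood at the percentiles 90.6 and 91.4 in the FLAG-SNAP1 libraries, against 46.2 and 62.5 with FLAG-SNAP2, 57.8 and 56.4 with FLAG-SNAP3, and 14.7 and 3.22 with FLAG-SNAP4, a gap of 28.2 points. Its mean fold enrichment was 7.103 with FLAG-SNAP1 and 4.21 ± 0.97 (SD, n = 6) in the others, and FLAG-SNAP4 was the lowest of the 4 TFs there. The next site, of 612 bp at chr20:41710205-41710816, lay 4436 bp from the nearest gene. It had 93.4 and 94.2 with FLAG-SNAP1, against 69.3 and 75.02 with FLAG-SNAP2, 57.0 and 51.1 with FLAG-SNAP3, and 45.8 and 62.4 with FLAG-SNAP4. Here the 2 replicates of FLAG-SNAP1 were close together and the other TFs formed a broad band below them. Inside the protein-coding gene LOC100788247, a 661 bp site at chr18:54919808-54920468, with its midpoint 267 bp from a gene end, had 90.1 and 93.0 with FLAG-SNAP1, against 74.95 and 71.6 with FLAG-SNAP2, 33.3 and 44.7 with FLAG-SNAP3, and 74.2 and 50.1 with FLAG-SNAP4. The annotation table used here gives gene limits without strand or exons, so neither the transcription start nor the exon or intron is stated for any site.

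The other 9 named higher sites had gaps between 7.87 and 13.6 points. They were 3 sites without a gene within 2 kb on chromosomes 13, 6 and 4, sites near the protein-coding genes LOC100818036, LOC102668324 and LOC100811987, a site 858 bp from the long non-coding RNA gene LOC121175159, and sites at the tRNA genes TRNAR-UCU and TRNAV-AAC, which encode tRNAs for arginine and valine. Their FLAG-SNAP1 percentiles lay between 74.9 and 98.9 except at LOC121175159, which had 62.5 and 54.8 with FLAG-SNAP1, against 45.0 and 37.5 with FLAG-SNAP2, 5.68 and 42.0 with FLAG-SNAP3, and 37.0 and 34.6 with FLAG-SNAP4. The TRNAV-AAC site was the strongest of the 12 by deposited fold, with 10.2 and 11.95 in the FLAG-SNAP1 libraries, against 6.24 and 5.74 with FLAG-SNAP2, 6.77 and 7.39 with FLAG-SNAP3, and 5.44 and 4.82 with FLAG-SNAP4. On the scale of shared sites 10 of the 12 were still called, and the exceptions were LOC121175159 and the site on chromosome 4.

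**Figure D2:**
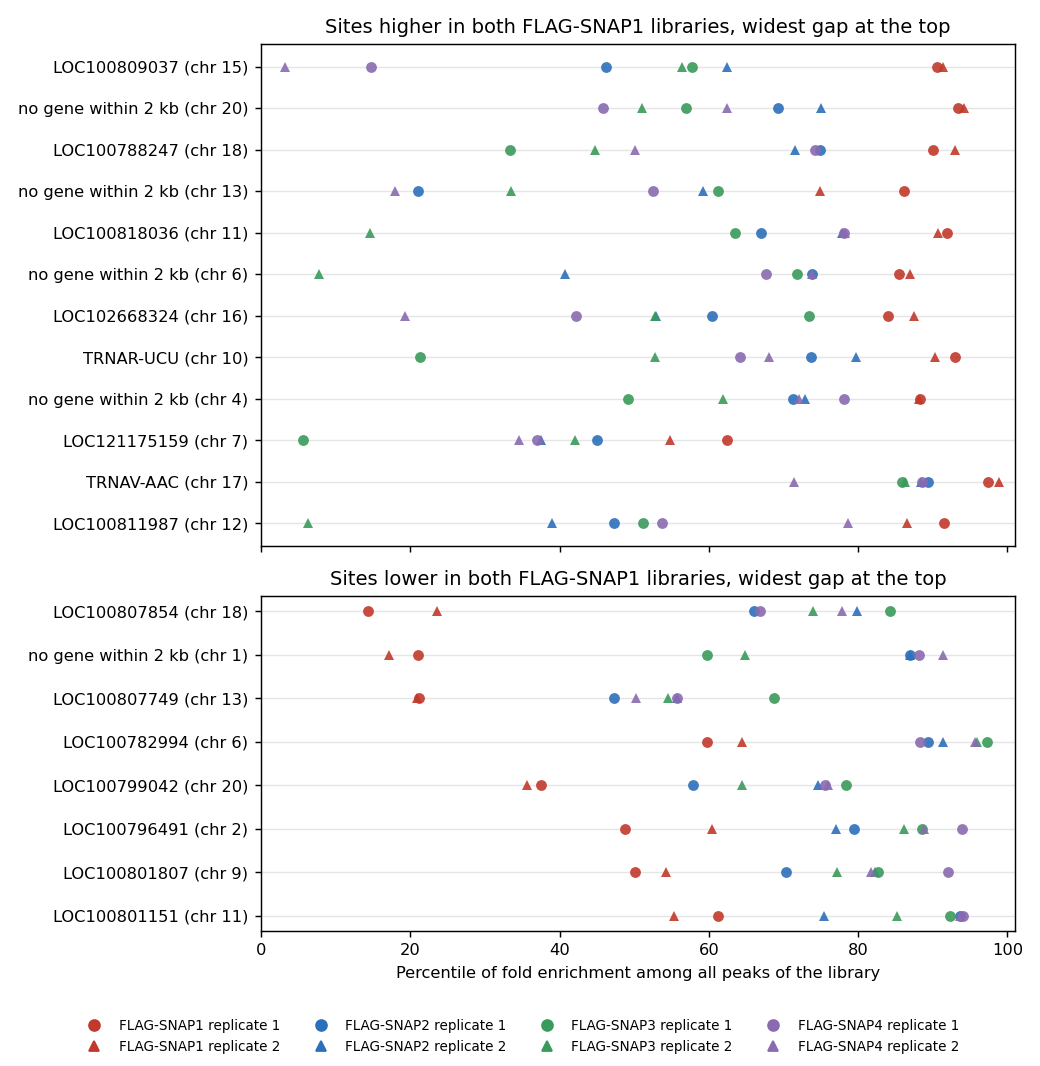
Percentile of the fold enrichment among all peaks of a library (x axis) at the 12 higher and 8 lower sites with the widest gaps, with 1 point for each library (colour, TF and circle or triangle, replicate). Red points, FLAG-SNAP1, lie right of all others in the upper panel and left of all others in the lower panel, from a gap of 28.2 points at LOC100809037 and 42.4 points at LOC100807854 downwards.

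Lower sites had wider gaps than higher sites on the scale of all peaks. The median gap was 7.80 points over the 30 lower sites and 1.02 points over the 136 higher sites, of which 48.5% had a gap under 1 point, and 15 of the higher sites were above the percentile 99 in both FLAG-SNAP1 libraries, where little room is left on this scale. The widest gap on this scale, 42.4 points, was at a 2602 bp site inside the protein-coding gene LOC100807854, at chr18:57693859-57696460. It had 14.3 and 23.6 with FLAG-SNAP1, against 66.0 and 79.8 with FLAG-SNAP2, 84.3 and 74.0 with FLAG-SNAP3, and 66.9 and 77.8 with FLAG-SNAP4. Its gap on the scale of shared sites was 17.9 points, narrower than 28.7 points at LOC100782994 and 33.9 points at the higher site on chromosome 20. The mean deposited fold was 3.73 with FLAG-SNAP1 and 5.33 ± 0.83 (SD, n = 6) in the others. A 1016 bp site at chr1:3320535-3321550, 6479 bp from the nearest gene, had 21.1 and 17.2 with FLAG-SNAP1, against 86.9 and 87.0 with FLAG-SNAP2, 59.7 and 64.9 with FLAG-SNAP3, and 88.2 and 91.4 with FLAG-SNAP4. At both sites the strongest FLAG-SNAP1 peak was weak within its list, while every other library had a peak from the stronger part of its list. The peaks were not split alike, with a mean of 2 peaks in a FLAG-SNAP1 library and 1 in another library at LOC100807854, and of 1 and 1.5 peaks at the site on chromosome 1.

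Of the other 6 named lower sites, 3 had their midpoint inside a protein-coding gene, LOC100807749, LOC100782994 and LOC100799042, and 3 lay within 1 kb of LOC100796491, LOC100801807 and LOC100801151. LOC100799042 carries the synonyms Gmubi3 and SUBI-3 and encodes polyubiquitin, the precursor of the protein tag that marks proteins for breakdown. Its site spanned 2784 bp at chr20:38022531-38025314 and had 37.6 and 35.6 with FLAG-SNAP1, against 57.8 and 74.6 with FLAG-SNAP2, 78.3 and 64.4 with FLAG-SNAP3, and 75.6 and 75.9 with FLAG-SNAP4. LOC100782994 was the strongest of the 8 in the other libraries, with a mean fold of 4.86 with FLAG-SNAP1 and 7.61 ± 2.00 (SD, n = 6) in the others. All 8 sites were also called lower on the scale of shared sites. A pair of lower sites on chromosome 15, 9456 bp apart and both far from genes, differed in strength: the first, at chr15:19641209-19641847, had 0.860 and 1.82 with FLAG-SNAP1 against 9.61 to 54.7 in the others, and the second, at chr15:19651304-19651836, had 86.7 and 69.4 against 93.5 to 98.4.

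At the edge of the rule the groups almost touched. The 3 higher sites with the narrowest gaps stood between 99.2 and 99.99 in the FLAG-SNAP1 libraries with gaps of 0.00797 points or less, and the nearest 3 that missed, 2 of them near LOC100814124 and LOC106796399, had gaps between -0.0266 and -0.00402 points. The lower sites with the narrowest gaps were near LOC100812568 and LOC100790140 and at a 319 bp site on chromosome 10 without a gene, with gaps of 1.52, 0.687 and 0.499 points, and the nearest miss had a gap of -0.00931 points. The library that stood closest to FLAG-SNAP1 was of FLAG-SNAP2 at 79 of the 136 higher sites, of FLAG-SNAP4 at 35 and of FLAG-SNAP3 at 22. Of the 30 lower sites it was of FLAG-SNAP2 at 11, of FLAG-SNAP3 at 10 and of FLAG-SNAP4 at 9. The same count over all sites is not given here. Shared sites also stood highest in the FLAG-SNAP2 lists among the other TFs, with median percentiles of 88.9 and 90.7. The counts are thus a description and not a measure of likeness between TFs.

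The higher and lower members differed in the kind of gene they lay at. A site was counted at a tRNA gene, the template of the adapters that carry amino acids to the ribosome, when the summits of at least 5 of the 8 libraries lay within 200 bp of it. Of the 136 higher sites 68 were at tRNA genes and of the 30 lower sites 1 (3.33%), TRNAL-UAG on chromosome 2, against 494 (38.6%) of all 1279. Turned round, 13.8% of tRNA sites were higher and 0.202% were lower, against 10.6% and 2.35% of all sites. The tRNA share of the lower sites was 15.7% without FLAG-SNAP4 replicate 1, 11.5% without FLAG-SNAP1 replicate 2, 5.88% without FLAG-SNAP3 replicate 2 and 2.17% without FLAG-SNAP2 replicate 1. The difference also rested on the scale: among the shared sites alone, 39 tRNA sites were higher and 27 lower, and 57.4% of higher sites and 35.1% of lower sites were tRNA sites. A high tRNA share among higher sites was also not particular to FLAG-SNAP1, since the share of tRNA sites among higher sites was 54.9% with FLAG-SNAP2, 22.7% with FLAG-SNAP3 and 1.67% with FLAG-SNAP4. The median deposited fold at tRNA sites was 8.48 and 8.57 with FLAG-SNAP1, against 7.46 and 7.51 with FLAG-SNAP2, 8.31 and 7.65 with FLAG-SNAP3, and 5.19 and 6.46 with FLAG-SNAP4.

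The tRNA sites higher with FLAG-SNAP1 were spread over many anticodons. The methionine tRNA genes TRNAM-CAU gave 8 higher sites of 32, TRNAD-GUC 5 of 22, TRNAK-CUU 5 of 17, TRNAG-UCC 5 of 16 and TRNAA-AGC 4 of 22, and none of the 22 sites at TRNAG-GCC, which like TRNAG-UCC serves glycine, was higher, against 13.8% of all tRNA sites. Other anticodons with fewer sites also had none, such as TRNAL-AAG with 14 sites. On the scale of shared sites the higher sites were 5 at TRNAM-CAU, 2 at TRNAD-GUC, 3 at TRNAK-CUU, 2 at TRNAG-UCC, 2 at TRNAA-AGC and none at TRNAG-GCC. Lower sites on that scale were 3 at TRNAG-GCC, 2 at TRNAM-CAU and 1 at TRNAG-UCC. These counts are too small to set one anticodon apart from another. The genes of an anticodon are often near-identical copies, and how many of their reads were lost because they fitted several copies is not known from the files. The 2 tRNA sites with the widest gaps after TRNAR-UCU and TRNAV-AAC were TRNAE-CUC on chromosome 15 and TRNAT-AGU on chromosome 17, for glutamate and threonine. TRNAE-CUC had 94.6 and 95.3 with FLAG-SNAP1, against 87.3 and 78.7 with FLAG-SNAP2, 77.8 and 62.1 with FLAG-SNAP3, and 61.5 and 69.3 with FLAG-SNAP4. TRNAL-UAG, the lower tRNA site, had 88.7 and 91.0 with FLAG-SNAP1, against 93.9 and 98.6 with FLAG-SNAP2, 98.5 and 95.7 with FLAG-SNAP3, and 94.96 and 96.7 with FLAG-SNAP4, so it was a strong site in every library.

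Among the 785 sites not at tRNA genes, 68 were higher and 29 lower with FLAG-SNAP1. By position, 24 of the 377 sites inside a gene were higher (6.37%) and 16 were lower (4.24%), 19 of the 179 outside genes and within 1 kb of one were higher (10.6%) and 9 were lower (5.03%), and 22 of the 197 over 2 kb from genes or on a scaffold were higher (11.2%) and 4 were lower (2.03%). Sites inside genes thus had the lowest share of higher members of these classes. The midpoint lay inside a gene at 35.3% of these higher sites and 55.2% of these lower sites, against 48.0% of all sites not at tRNA genes. On the scale of shared sites the direction of the balance changed, with 10 higher and 25 lower sites inside genes and 7 higher and 12 lower over 2 kb from genes, while the share of higher members stayed lowest inside genes. The nearest gene within 2 kb was protein-coding at 43 of the 136 higher sites (31.6%) and at 25 of the 30 lower sites (83.3%), against 42.7% of all sites, and on the scale of shared sites at 33.8% of higher and 51.9% of lower sites. A further 25 higher sites and 4 lower sites had no gene end within 2 kb of the midpoint. Some of these higher sites lay inside a gene, such as chr8:28441405-28441851, 10564 bp from the nearest gene end. The remaining higher sites were nearest to a tRNA gene (63), a long non-coding RNA gene (3), a small nucleolar RNA gene (1) or a pseudogene (1).

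**Figure D3:**
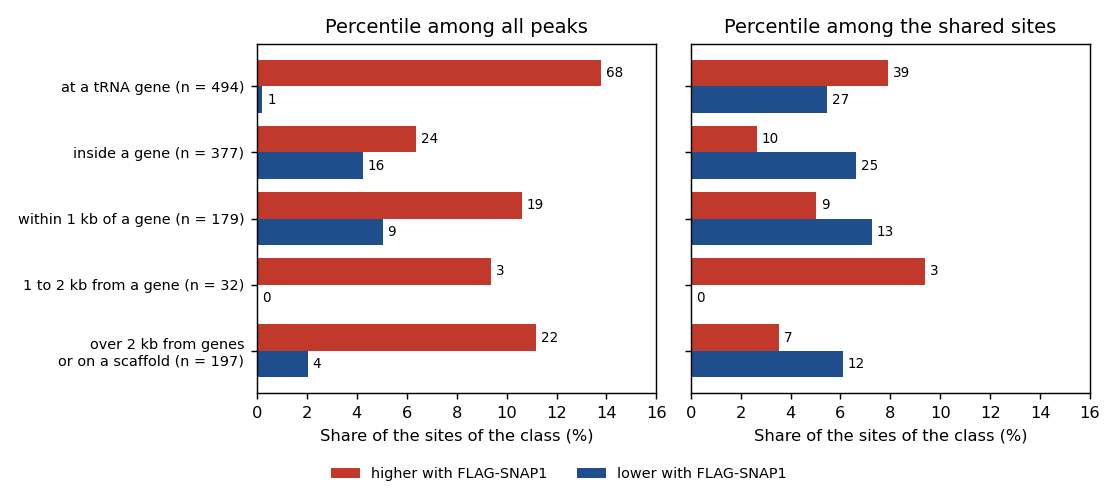
Share of the sites of each position class (x axis, %) that were higher (red) or lower (blue) with FLAG-SNAP1, with percentiles among all peaks (left) or among the shared sites (right), and the number of sites at each bar. On the left 68 tRNA sites were higher and 1 was lower, and on the right 39 and 27.

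Width separated the members as well. The median width of a site, which spans the joined peaks of all libraries, was 615 bp over the higher sites and 939 bp over the lower sites, against 663 bp over all 1279, and the upper quartile was 706 bp and 2359 bp, against 959.5 bp. Of the higher sites 8.82% and of the lower sites 46.7% were 1000 bp or wider, against 23.7% of all sites. Among the 320 widest sites 13 were higher (4.06%) and 15 were lower (4.69%), whereas 40 to 42 were higher and 2 to 7 were lower in each of the 3 sets of 319 or 320 narrower sites. The pattern was also seen away from tRNA genes, where 12 of 297 sites of 1000 bp or more were higher and 14 were lower, while 56 of 488 narrower sites were higher and 15 were lower. On the scale of shared sites the median width was 622.5 bp over the higher sites and 731 bp over the lower sites, and 7.35% and 29.9% of them were 1000 bp or wider, so the lower sites were nearer to all sites there. Over all sites, the mean FLAG-SNAP1 percentile minus that of the others fell with width, with a Spearman rho of -0.158 over 1279 sites and -0.157 over the 785 not at tRNA genes, and -0.212 and -0.207 on the scale of shared sites. These are weak relations over sites that share the same 8 libraries. Wide lower sites were not particular to FLAG-SNAP1, because the lower sites of FLAG-SNAP2 had a median width of 1374 bp, against 669 bp with FLAG-SNAP3 and 611 bp with FLAG-SNAP4.

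The libraries at the lower sites also held more peaks and placed their summits farther apart on the scale of all peaks. The lower sites had a mean of 1.22 peaks in a FLAG-SNAP1 library and 1.23 in another, against 1.02 and 1.04 at the higher sites. The mean summits of FLAG-SNAP1 and of the others were over 100 bp apart at 43.3% of the lower sites and 8.82% of the higher sites, against 19.2% of all sites. On the scale of shared sites little of this was left at the lower sites, with 22.1% of summits over 100 bp apart and 1.09 and 1.11 peaks, against 1.07 and 1.09 at all sites. Where every library had exactly 1 peak, 16 of 999 sites were lower and the median width of these 16 was 638 bp. With summits within 200 bp of a peak of FLAG-SNAP1 replicate 1 in every library 15 were lower. The number of sites in that setting is not given here. The part of split and shifted peaks in the other lower sites was not tested.

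**Figure D4:**
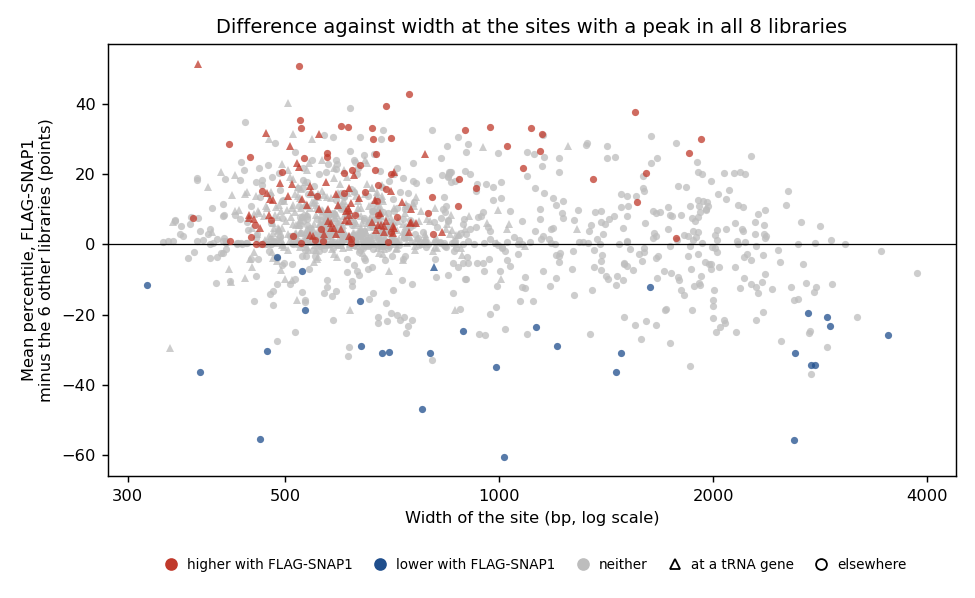
Mean percentile of the 2 FLAG-SNAP1 libraries minus that of the 6 others (y axis, points) against the width of the site (x axis, log scale) at 1279 sites, with members in colour and tRNA sites as triangles. Higher sites (red) reach 1921 bp and lower sites (blue) reach 3521 bp. Most higher sites lie below 1000 bp, as do most of all 1279 sites, and lower sites lie on both sides of 1000 bp.

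The genes of TF families and of nodule and nitrogen pathways were looked up by name among the nearest genes, which finds only genes that carry such a symbol in the annotation. The NAC list had 5 sites among the 1279, of which 1 was lower and none higher with FLAG-SNAP1. The WRKY list had 12 sites, the heat stress factor list 6, the bZIP list 5 and the ethylene-responsive factor list 2, and none of them was higher or lower on the scale of all peaks, while 1 WRKY site was lower on the scale of shared sites. Of the LBD and NF-Y genes, NF-YC13 was higher and LBD30 was lower, and the ubiquitin list had 2 sites, of which LOC100799042 was lower. No gene named for MYB factors, vacuolar-processing enzymes, DnaJ chaperones, autophagy, nodulins or nitrate transport was nearest to any of the 1279 sites. In this order the lists held 85, 2, 3, 6, 20 and 21 annotated symbols, so an absence from the shorter lists says little. Among its targets the study reports DnaJ-domain genes bound by every SNAP TF, and vacuolar-processing enzyme genes bound by SNAP1 or SNAP3. With 1 or no member in each list and direction, the counts of members are too small to be read against the 10.6% and 2.35% of all sites.

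SNAC38, a gene of the NAC family to which the SNAP TFs belong, had the lower site with the widest spread between replicates. This 460 bp site at chr10:45205553-45206012, 472 bp from the gene, had 10.2 and 40.4 with FLAG-SNAP1, against 89.4 and 93.9 with FLAG-SNAP2, 90.3 and 78.6 with FLAG-SNAP3, and 47.1 and 86.0 with FLAG-SNAP4. Its deposited folds were 3.46 and 4.25 with FLAG-SNAP1 and overlapped with 3.98 in the first FLAG-SNAP4 library, which was also the nearest library by percentile. LBD30 is named for the LOB domain, a DNA-binding domain of plant TFs. The 779 bp site inside LBD30, at chr7:8404752-8405530, had 8.94 and 9.21 with FLAG-SNAP1, against 78.1 and 68.7 with FLAG-SNAP2, 35.4 and 19.8 with FLAG-SNAP3, and 74.5 and 60.7 with FLAG-SNAP4. NF-YC13 is a subunit of nuclear factor Y, a TF complex that binds CCAAT boxes. Its 446 bp site at chr15:51375604-51376049, 106 bp from the gene, had 93.3 and 92.4 with FLAG-SNAP1, against 82.5 and 44.9 with FLAG-SNAP2, 90.9 and 78.9 with FLAG-SNAP3, and 49.4 and 61.2 with FLAG-SNAP4. It was called on the scale of all peaks only, and the other symbols among the higher sites, AN1 with a gap of 0.357 points and HDA1 with 0.0596, were likewise not called on the scale of shared sites.

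The peaks of FLAG-SNAP1 were wider than those of the other TFs, a measure that the choice of members did not use. The median width of all peaks was 356 and 371 bp in the FLAG-SNAP1 libraries, against 318 and 335 bp with FLAG-SNAP2, 270 and 290 bp with FLAG-SNAP3, and 293 and 293 bp with FLAG-SNAP4. The groups did not overlap, with 363.5 ± 10.6 bp (SD, n = 2) in FLAG-SNAP1 and 299.8 ± 23.0 bp (SD, n = 6) in the others, a difference of 63.7 bp. At the 1279 shared sites the strongest peaks had a median width of 511 and 532 bp with FLAG-SNAP1, against 464 and 501 bp with FLAG-SNAP2, 391 and 356 bp with FLAG-SNAP3, and 395 and 425 bp with FLAG-SNAP4, so the order of the TFs was alike there. The exact two-sided permutation test of 2 libraries against 6 gave p = 0.0714 for both widths, which is the smallest it can give, and 0.286 after Benjamini-Hochberg adjustment over 8 measures, so neither passed. At single sites FLAG-SNAP1 had the wider peaks at members and other sites alike, with a median log2 ratio of widths over the others of 0.28 at the higher sites, 0.15 at the lower sites and 0.28 at all 1279. By the means of the TFs peak number moved with width, since FLAG-SNAP1 and FLAG-SNAP2 had the longest lists and the widest peaks. By library the order differed, as FLAG-SNAP2 replicate 2 had the most peaks, 9332, with a median of 335 bp. With the same number of strongest peaks in each library the differences in both widths kept their sign. The part of peak number in their size was not tested.

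**Figure D5:**
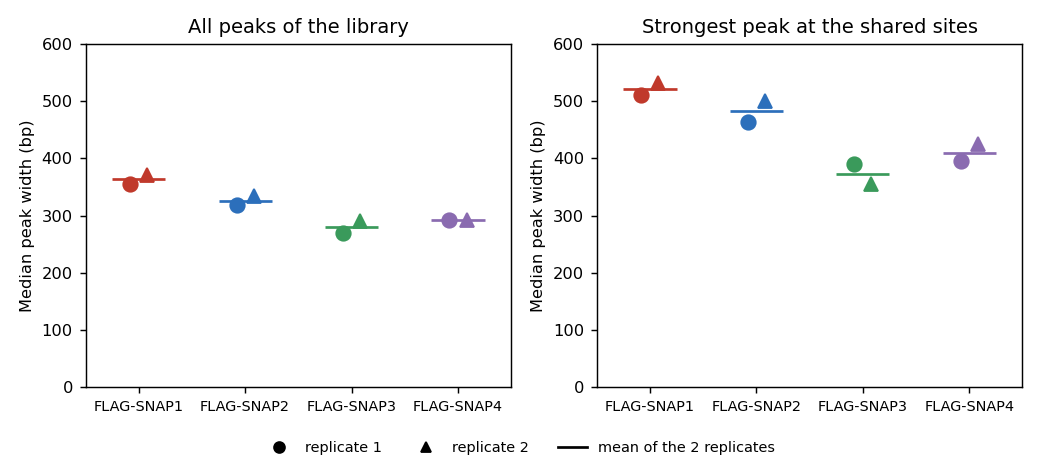
Median peak width (y axis, bp) in each library by TF, over all peaks (left) and over the strongest peaks at the 1279 shared sites (right), with 1 point for each replicate and a bar at their mean. The FLAG-SNAP1 libraries, at 356 and 371 bp on the left and 511 and 532 bp on the right, lie above the 6 others in both panels.

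The other measures of a whole library did not separate FLAG-SNAP1. It had 8739 ± 443 peaks (SD, n = 2), and the others 6705 ± 1928 (SD, n = 6). The midpoint lay inside a gene at 37.9 and 38.6% of FLAG-SNAP1 peaks, against 36.0 to 52.1% in the others, and outside genes within 1 kb of a gene end at 30.8 and 29.2%, against 23.0 to 30.6%. Peaks over 2 kb from every gene made up 23.9 and 24.6% with FLAG-SNAP1, against 18.4 to 25.2%, and peaks at tRNA genes 7.79 and 7.30%, against 7.105 to 15.4%. The 2 values lay within the range of the 6 others in each case but one, the first FLAG-SNAP1 library near gene ends. The exact permutation p of the number of peaks, of these 4 shares and of the median percentile at shared sites lay between 0.214 and 0.429 (0.327 to 0.429 adjusted), and a design of 2 against 6 cannot reach 0.05.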

How the data were processed

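The authors trimmed the reads with Trim Galore 0.6.6, used Bowtie2 2.3.4.3 for alignment to Wm82 a4.v1, kept uniquely mapped proper pairs and called peaks in each library with MACS2 2.2.7.1 at a q-value of 0.05, without pooling replicates. A control library for the calls is not given in the sources used here. The deposited columns give, for each peak, a fold enrichment as a ratio, a −log10 p-value, a −log10 q-value, a score made from the −log10 q-value, and the summit. The files hold no read counts, so the depth of each library is unknown. Sites, percentiles (mid-ranks for ties) and calls were computed in Python 3.11.15 with pandas 2.3.3, and exact two-sided permutation tests over libraries with SciPy 1.17.1, adjusted by Benjamini-Hochberg over 8 measures. The steps were tested on simulated peaks. Nearest genes within 2 kb, by gene end, came from RefSeq's Glycine_max_v4.0, with 58643 genes on 20 chromosomes and no strand or sequence, and 2 to 6 peaks per library lay at tRNA genes after a shift of 20 kb, against 553 to 663 before. Promoter sequences were not used here. The members, gene lists and measures were chosen with earlier results of these data known. The rule for named sites took the 12 higher and 8 lower sites with the widest gap, the 3 nearest each side of the rule, and members of the gene lists, and AN1 and HDA1 were added after their values were seen. Part of a gene list is not reported here. Alternatives were other scales, columns 8 and 9, other ways of matching peaks, stricter q-values, equal numbers of peaks, the replicate block, leaving out libraries, and other distances and gene sets. Replicate numbers were not taken as pairs in the main tests. Deviations from the means of a TF correlated by -0.0082 to 0.036, which shows no pattern by replicate number in this measure. Whether libraries of equal number were processed together is not given in the sources used here.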

Additional observations from a re-analysis of the deposited data

Results flagged for a closer look

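Among the 6 libraries of FLAG-SNAP2, FLAG-SNAP3 and FLAG-SNAP4, 28 quantities were searched for a library far from the other 5. Dixon's ratio at its 95% limit found 4, while chance flags about 1 in 20 of values that were not selected. Most of the 28 were percentiles at the named sites, which the rule chose by these same values. That rate does not hold for them, so the 4 cannot be read as an excess. At the higher site near LOC100818036 FLAG-SNAP3 replicate 2 stood at the percentile 14.6, against 63.5 to 78.3 in the other 5. At the higher site near LOC121175159 FLAG-SNAP3 replicate 1 stood at 5.68, against 34.6 to 45.0, and at the TRNAV-AAC site FLAG-SNAP4 replicate 2 stood at 71.4, against 85.8 to 89.4. In these 3 cases the library far from the rest was the lowest, while the gap to FLAG-SNAP1 was set by the highest, so the sites were called with and without that library. The share of peaks at tRNA genes was 15.4% in FLAG-SNAP3 replicate 2, the library with the fewest peaks, against 7.105 to 9.39% in the other 5.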

How the results depend on the processing

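With percentiles among the shared sites, 68 sites were higher and 77 lower, 35.1% of lower sites were at tRNA genes, and replicate 2 kept 47.6% of higher and 52.4% of lower sites of replicate 1. With centred log2 fold enrichment 120 sites were lower, 76.1% of higher sites were at tRNA genes and replicate 2 kept 56.1% of lower sites. With −log10 p or q the median width of higher sites was 666 bp. With summits within 200 bp of a peak of FLAG-SNAP1 replicate 1, 15 sites were lower, 58.8% of higher sites were at tRNA genes and 26.7% of lower sites lay inside genes. With reciprocal overlap of 50%, 84 were higher and 10 lower, 30% of the lower ones inside genes. With exactly 1 peak in every library 16 of 999 sites were lower, 31.2% of these 16 inside genes, with a median width of 638 bp. Without tRNA sites 68 were higher, with a median width of 662.5 bp. With the same number of strongest peaks 58 were higher and 65.5% of these were at tRNA genes, 45.9% of lower sites were at tRNA genes, with a median width of 637 bp, replicate 2 kept 51.4% of lower sites, and the share of peaks at tRNA genes was higher with FLAG-SNAP1 by 1.28 percentage points, not lower (exact permutation p = 0.357). At a q-value of 0.0001, 18 were lower. With protein-coding genes alone 59.6% of higher sites had such a gene within 2 kb, by construction. Settings added after seeing the data gave 240 higher sites, 58.8% of them at tRNA genes, and 0% of lower sites at tRNA genes (fold as deposited), and 291 higher, 35.7% at tRNA genes, and 149 lower sites (without both FLAG-SNAP3 libraries). The cause of these shifts was not tested. Other ways of matching peaks, stricter q-values, equal numbers of peaks and left-out libraries can change the set of shared sites. The tRNA share over all sites of each changed set is not given here, and mostly neither is its size. Whether the tRNA shares of members in these settings differ from those of all their sites thus cannot be told, and the counts are not shares of sites. Leaving out each library gave 163 to 277 higher and 37 to 87 lower sites, replicate 2 kept 58.1 to 68.8% of the higher sites of replicate 1, and the AN1 site, which splits when a joining peak is left out, moved between -35.4 and 35.8 points. In the replicate block, each FLAG-SNAP1 library was set against the 3 others with its number, replicate 2 kept 49.3% of higher sites of replicate 1, and the exact p of both widths, permuted within replicate numbers, was 0.125. The widths of anchored sites are those of single peaks and were not compared. All 20 named sites kept their direction in every setting where they had a value, but 5 of the 12 higher ones were no longer called with centred log2 fold enrichment, 2 with percentiles among the shared sites and 1 with the fold as deposited, and of the 8 lower ones 3 with −log10 p or q and 1 with the fold as deposited. Leaving out libraries, the replicate block and dropping sites cannot lose the call of an unchanged site, so those settings are no check on it. Few lower sites had a value with summits within 200 bp (3 of 8), reciprocal overlap (1), the same number of strongest peaks (1) or exactly 1 peak (4), and of the 12 higher ones 7, 6, 4 and 11 had one. The difference in both widths kept its sign throughout. The depth of each library, a control library and gene strand are not known here, and they limit every comparison of levels between TFs.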

Other observations

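Stretches with peaks of a single TF were also counted. Of the 5623 stretches with a peak in both FLAG-SNAP1 libraries, 682 (12.1%) had none in the 6 others, against 437 of 4806 (9.09%) with FLAG-SNAP2, 202 of 2629 (7.68%) with FLAG-SNAP3 and 114 of 3216 (3.54%) with FLAG-SNAP4. With FLAG-SNAP1 their median fold enrichment was 4.35, against medians of 4.54 and 4.49 over all peaks of its libraries, and 30.4% had their midpoint inside a gene. The strongest, at chr11:18292750-18293107, lay 1184 bp from LOC106795120 with folds of 9.02 and 7.63, and the third strongest, at chr13:10829678-10830135 inside SWEET31, named for the SWEET sugar transporters, had 5.18 and 7.89. The opposite case, a peak in all 6 others and in neither FLAG-SNAP1 library, was met at 23 of the 21575 stretches. The matching counts were 48 with FLAG-SNAP2, 324 with FLAG-SNAP3 and 37 with FLAG-SNAP4. The strongest of the 23, at chr12:14457454-14458015 and 4451 bp from the nearest gene, had folds of 6.10 and 7.21 with FLAG-SNAP2, 11.3 and 9.95 with FLAG-SNAP3, and 6.98 and 8.77 with FLAG-SNAP4. Inside LOC100786481, at chr4:4763080-4763730, the folds were 4.33 and 4.40 with FLAG-SNAP2, 11.6 and 12.8 with FLAG-SNAP3, and 4.82 and 6.997 with FLAG-SNAP4. A missing peak shows only that no peak was called at a q-value of 0.05, and the lists differ in length.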
